A study of Mus musculus with 71 samples.

Results

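The innate microbial sensors of the gut, a list of 9 genes chosen by symbol, were followed through bulk RNA-seq of the mouse intestine. They are *Tlr2*, *Tlr3*, *Tlr4*, *Tlr5* and *Tlr9* of the Toll-like receptor family and *Nod1*, *Nod2*, *Nlrp6* and *Nlrc4* of the NOD-like receptor family. All 9 were found among the 24475 gene identifiers of the 3 count tables, whatever their level. The first table holds 16 libraries of intestinal epithelial cells (IEC) and the second 22 libraries of TCRγδ intraepithelial lymphocytes (IEL), each from duodenum, jejunum and ileum. The third holds 27 libraries of whole small intestine or colon. Mice were wild type (WT) C57BL/6 or Btnl2-KO, a line that carries a lacZ knock-in null allele of *Btnl2*, a butyrophilin-like gene of the gut epithelium, and both genotypes were cohoused littermates at steady state.

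The IEC came from mice 7 weeks old, with 3 WT and 2 Btnl2-KO duodenal libraries, 3 of each genotype for jejunum, and 2 WT and 3 Btnl2-KO ileal libraries. They were the upper layer of a Percoll gradient and were not sorted. The IEL were labelled 10 weeks old and were sorted as CD45-positive, TCRβ-negative and TCRγδ-positive cells, each library a pool of 2 mice. There were 4 WT libraries of every segment, with 3 duodenal, 4 jejunal and 3 ileal Btnl2-KO libraries. The tissue of young mice, whose age the labels do not give in numbers, comprised 7 WT and 7 Btnl2-KO libraries of small intestine and 6 WT and 7 Btnl2-KO libraries of colon. Each segment was a separate library, and the labels do not say which segments came from one mouse.

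Toll-like receptors recognise conserved microbial molecules and signal through the adaptors MyD88 and TRIF to NF-κB and interferon regulatory factors. TLR2, TLR4 and TLR5 sense bacterial lipoproteins, lipopolysaccharide and flagellin at the cell surface, whereas TLR3 and TLR9 sense double-stranded RNA and unmethylated CpG DNA in endosomes. NOD1 and NOD2 are cytosolic sensors of peptidoglycan fragments that act through the kinase RIPK2. NLRC4 assembles an inflammasome after NAIP proteins bind flagellin or secretion-system proteins, and NLRP6 is an inflammasome sensor known for its expression in the gut epithelium.

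The gene identifiers in the tables are 24088 (*Tlr2*), 21898 (*Tlr4*), 53791 (*Tlr5*), 142980 (*Tlr3*), 81897 (*Tlr9*), 107607 (*Nod1*), 257632 (*Nod2*), 101613 (*Nlrp6*) and 268973 (*Nlrc4*). In the RefSeq annotation of build GRCm38.p6 the surface receptor genes lie at chr3:83836272-83841824 on the minus strand (*Tlr2*), chr4:66827551-66846581 on the plus strand (*Tlr4*) and chr1:182954752-182976044 on the plus strand (*Tlr5*). The endosomal receptor genes lie at chr8:45395665-45411075 on the minus strand (*Tlr3*) and chr9:106222598-106226876 on the plus strand (*Tlr9*). The genes of the NOD-like receptors lie at chr6:54923942-54972674 on the minus strand (*Nod1*), chr8:88647315-88688474 on the plus strand (*Nod2*), chr7:140920902-140929192 on the plus strand (*Nlrp6*) and chr17:74426255-74459144 on the minus strand (*Nlrc4*).

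Promoter windows, from 250 bases before to 50 after an annotated transcript start, were available in RefSeq for 8 of the 9 genes, all but *Tlr4*. Those of 2 pairs of genes are shown because each pair differed between colon and small intestine in 1 direction: *Tlr2* and *Nod1* had higher levels in colon, and *Tlr3* and *Nlrc4* had lower levels there. Capitals mark matches on either strand to 8 strings of letters, where N is any base. The string TTTAT stood for the box of the intestinal homeobox factor CDX2, and AGATAA for the box of the GATA factors of the proximal gut. The string CAAAGTC stood for the core of the enterocyte factor HNF4, and TGANTCA for the box of the stress-responsive factor AP-1. The kappaB core was read as GGGA, any 4 bases and a closing pair of C, and the core of the interferon-stimulated element as GAAA repeated after any 2 bases. The PU.1 box of myeloid cells was GAGGAAGT, and the core of the broader ETS family was CCGGAAGT. The windows, 5′ to 3′ on the strand of the gene, are:
*Tlr2*, chr3:83841559-83841858, minus strand: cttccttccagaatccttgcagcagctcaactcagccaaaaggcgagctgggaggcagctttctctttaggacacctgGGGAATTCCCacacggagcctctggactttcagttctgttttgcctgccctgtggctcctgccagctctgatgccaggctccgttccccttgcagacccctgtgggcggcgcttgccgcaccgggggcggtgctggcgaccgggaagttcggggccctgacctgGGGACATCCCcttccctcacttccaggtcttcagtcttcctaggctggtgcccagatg
*Nod1*, chr6:54972563-54972862, minus strand: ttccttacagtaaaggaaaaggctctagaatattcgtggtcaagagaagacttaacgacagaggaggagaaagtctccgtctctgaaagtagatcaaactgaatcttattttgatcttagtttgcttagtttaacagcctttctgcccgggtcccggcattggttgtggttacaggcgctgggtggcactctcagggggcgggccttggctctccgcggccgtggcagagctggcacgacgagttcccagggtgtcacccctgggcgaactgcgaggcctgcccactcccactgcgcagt
*Tlr3*, chr8:45410331-45410630, minus strand: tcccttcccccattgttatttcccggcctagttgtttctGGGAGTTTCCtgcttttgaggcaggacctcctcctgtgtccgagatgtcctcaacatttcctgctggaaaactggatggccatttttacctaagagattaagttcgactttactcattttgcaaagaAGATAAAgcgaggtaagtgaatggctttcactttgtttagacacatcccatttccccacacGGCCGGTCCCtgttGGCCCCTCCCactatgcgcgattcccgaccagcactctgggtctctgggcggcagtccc
*Nlrc4*, chr17:74459059-74459358, minus strand: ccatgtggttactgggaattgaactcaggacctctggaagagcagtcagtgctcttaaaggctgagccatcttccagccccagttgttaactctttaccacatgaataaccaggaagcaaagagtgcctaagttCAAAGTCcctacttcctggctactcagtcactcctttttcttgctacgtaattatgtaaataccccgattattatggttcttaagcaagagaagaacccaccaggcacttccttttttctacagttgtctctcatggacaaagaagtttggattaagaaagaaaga

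The *Tlr2* window held the kappaB string at 2 places, beginning 172 and 8 bases before the start, and 20.7% of the 32851 windows in the RefSeq table held that string. The *Tlr3* window held it at 3 places and also held overlapping GATA and CDX strings, which were present in 11.2% and 40.0% of all windows. That window surrounds a transcript start at 45410380 and lies wholly within the gene span given above, downstream of its 5′ end. The *Nlrc4* window held the HNF4 string, present in 4.44% of all windows, and the *Nod1* window at the upstream start held none of the 8 strings. The *Nod1* window had 15 CpG dinucleotides, *Tlr2* had 11 and *Tlr3* had 10, against a median of 7 over all windows, and *Nlrc4* had 2. The matches describe the letters of these windows and were not tested as binding sites.

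Library totals ran from 15397757 to 38258472 counts in IEC, 13444958 to 30029485 in IEL and 13619309 to 21708721 in tissue. *Btnl2* itself had 485 to 1888 counts in the WT and 9 to 32 in the Btnl2-KO libraries of small intestine, at most 2 in the Btnl2-KO IEL libraries, and at most 19 in 6 of the 8 Btnl2-KO IEC libraries. The other 2 held 122 (library 1003459, labelled duodenal) and 247 counts (1003474, labelled jejunal). The IEC segment labels also fell short of the markers in 3 Btnl2-KO libraries. *Fabp6*, the bile acid-binding protein of ileal enterocytes, stood at 220 CPM (the count scaled to TMM-normalized library size) in 1003459 and 484 CPM in 1003474, but at 0.231 CPM in 1003481, labelled ileal, while the WT ileal libraries had 580 and 586 CPM. The IEC comparisons of genotype are given with these libraries and, where stated, without them, and comparisons along the gut rest on WT mice alone. The sorted IEL carried 35112 to 91900 CPM summed over 10 γδ IEL markers against 25.6 to 417 CPM in IEC, but also 605 to 9223 CPM over 12 pan-epithelial markers, all 12 of them detected in every IEL library. In such mixtures fewer cells of a type and less RNA per cell cannot be told apart.

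Per kilobase of exon, *Nlrp6* was the most abundant sensor in the epithelium and in tissue of WT mice, whereas *Nod1* was the most abundant in WT IEL. In Btnl2-KO duodenal IEL *Nlrp6* (10.8 CPM per kb) and *Nod1* (10.7 CPM per kb) stood side by side. *Nlrp6* averaged 89.5 ± 20.7 CPM per kb (SD, n = 3) in WT duodenal IEC, against 11.3 ± 1.87 CPM per kb for *Nlrc4* and 5.98 ± 1.80 CPM per kb for *Tlr3*. *Tlr2*, *Nod1* and *Nod2* followed at 2.43, 1.18 and 0.348 CPM per kb, and *Tlr5*, *Tlr9* and *Tlr4* stood below 0.1 CPM per kb. The 3 genes that led, and their order, were the same in WT jejunal and ileal IEC. In WT jejunal IEL *Nod1* averaged 16.1 ± 3.19 CPM per kb (SD, n = 4) and *Nlrp6* 8.03 ± 4.77 CPM per kb, with the other 7 genes at 1.92 CPM per kb or less. In WT small intestine the levels per kb ran from 51.9 ± 11.3 CPM per kb for *Nlrp6* to 0.654 for *Nod2*, and in WT colon from 35.9 for *Nlrp6* to 0.668 for *Tlr9*. Levels of the 3 tables were normalized separately, so that cell fraction and table cannot be told apart and no test was made between them.

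**Figure D1:**
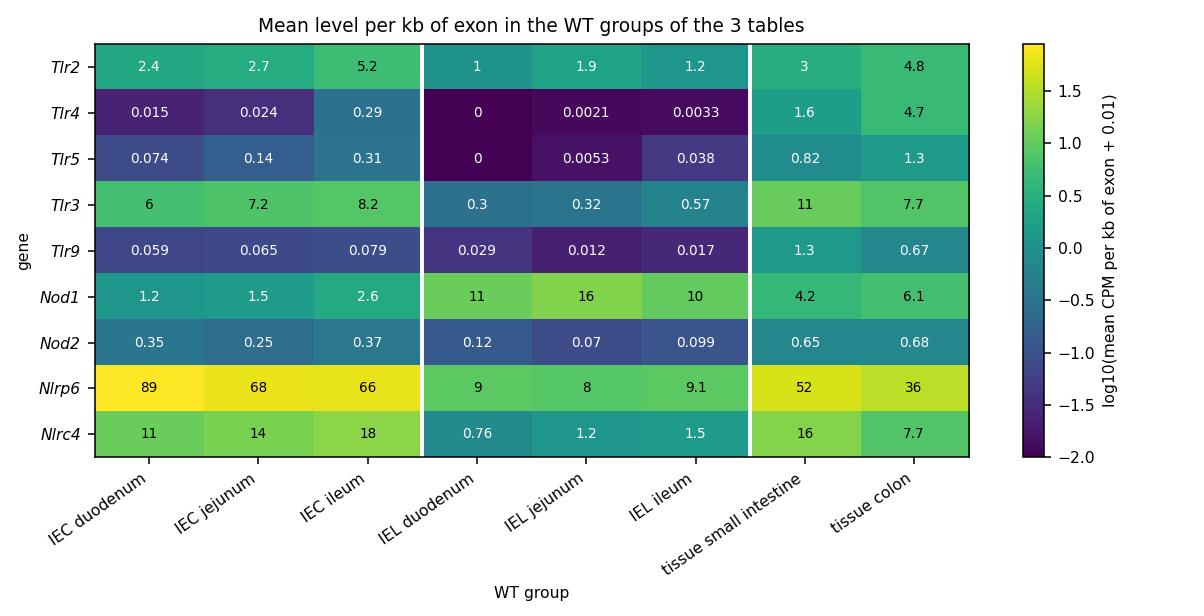
Mean level of each sensor (rows) in the 8 WT groups (columns), as CPM per kb of exon, written in each cell and coloured on a log10 scale after adding 0.01. White lines part the 3 separately normalized tables. *Nlrp6* leads in IEC and tissue, *Nod1* leads in IEL at 10.1 to 16.1 CPM per kb, and *Tlr4* and *Tlr5* are at 0 in WT duodenal IEL.

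In the WT IEC libraries, the surface receptors had higher levels in the ileum than in the duodenum. These cells were not sorted, and their 7 myeloid markers rose along the gut as well. Those markers summed to 27.6 to 32.9 CPM in duodenum, 53.1 to 56.5 CPM in jejunum and 92.4 to 102 CPM in ileum. The pan-epithelial sums overlapped, at 10634 to 14518, 10422 to 13763 and 12951 to 14115 CPM. The part of the myeloid cells in the differences between segments was not tested. *Tlr4*, the lipopolysaccharide receptor, had 1.42 and 1.75 CPM in the 2 ileal libraries (39 and 48 counts), 0, 0.126 and 0.275 CPM in the jejunum, and 0, 0.0993 and 0.143 CPM in the duodenum (0, 2 and 3 counts). The ileal libraries lay apart from all others. The ratio of the summed counts of ileum and duodenum, adjusted for library size, was 21.4 with an exact 95% interval of 8.82 to 67.5 that covers counting error only. The log2 fold change was 4.31 ± 0.70 (SE, FDR 0.0207 by edgeR), and against the jejunum 3.73 ± 0.72 (FDR 0.0558). *Tlr4* passed the minimum of 10 counts only through the ileal libraries where it was high, so that its call is given as a description. With no filter on low counts its FDR was 0.0434. *Tlr2*, which senses lipoproteins, had 14.2 and 17.4 CPM in the ileum, 5.61, 8.63 and 10.5 CPM in the jejunum and 6.80, 7.15 and 8.06 CPM in the duodenum. Its ileal libraries exceeded the rest, with a log2 fold change of 1.11 ± 0.22 over the duodenum (FDR 0.0395, or 0.0560 with no filter on low counts) and 0.93 ± 0.26 over the jejunum (FDR 0.211). Leaving out 1 library moved the difference of *Tlr2* from the duodenum to between 0.98 and 1.29. Of the 5 fits that left out a library, only that without duodenal library 1003466 still called *Tlr2*. Those without an ileal library rest on 1 ileal library. It was also not called with all IEC libraries in one fit. *Tlr5*, the flagellin receptor, had 0.801 and 1.75 CPM in the ileum, 0.537, 0.572 and 0.605 CPM in the jejunum and 0.228, 0.248 and 0.429 CPM in the duodenum. Its libraries fell into 3 separate ranges, and the log2 fold changes of 2.08 ± 0.52 (ileum over duodenum, FDR 0.0824) and 1.16 ± 0.43 (ileum over jejunum, FDR 0.434) did not pass the threshold. Without ileal library 1003488 the latter was 0.49, and against the duodenum *Tlr5*, like *Tlr4*, passed the count minimum only with both ileal libraries.

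Of the 8 sensors tested between WT ileum and duodenum, 2 were called, both higher (FDR below 0.05 and a change of at least 1.5-fold). These were *Tlr2* and *Tlr4*, where 4.42% of the 12784 genes tested were called. An unadjusted p under 0.05 was reached by 5 sensors and by 16.6% of all genes. *Tlr4* and *Tlr5* passed the count minimum here only through the ileal libraries, so that counts that include them are descriptions. Between WT ileum and jejunum 0 of 8 were called, against 1.13% of all genes, with 4 of the 8 at an unadjusted p under 0.05 (8.18% of all genes) and 1 (*Tlr4*) called by DESeq2. *Tlr4*, at 0 to 5 counts in the jejunum, again passed the count minimum only through the ileal libraries. Its DESeq2 call and its place in these counts are descriptions. Between WT jejunum and duodenum 0 of 7 were called, against 0.32% of all genes, with 1 of the 7 at an unadjusted p under 0.05 (11.3% of all genes) and 0 called by DESeq2. *Tlr5*, at 5 to 9 counts in the duodenum and 11 to 18 in the jejunum, passed the count minimum only through the jejunal libraries. The counts of that comparison are descriptions as well. These 3 comparisons share groups, and the ileal group rests on 2 libraries. Without duodenal library 1003465 no sensor was called between ileum and duodenum, and without duodenal library 1003466 there were 4. Without ileal library 1003488 or 1003491 none was called either, but *Tlr4* and *Tlr5* then fell below the count minimum and were not tested, leaving 6 sensors. When all IEC libraries but the 3 of doubtful label were fitted together, an alternative chosen after the data were seen, 5 sensors were called (*Tlr2*, *Tlr4*, *Tlr5*, *Nod1* and *Nlrc4*), and with those 3 libraries in the fit there were 0.

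The cytosolic sensors were less uniform along the epithelium. *Nod1* had 9.59 and 13.4 CPM in the WT ileum, 5.94, 6.23 and 7.21 CPM in the jejunum and 4.29, 5.51 and 5.74 CPM in the duodenum. The 3 segments did not overlap, and the log2 fold change from duodenum to ileum was 1.16 ± 0.26 (FDR 0.0624), and from jejunum to ileum 0.83 ± 0.22 (FDR 0.168). *Nlrc4* had 81.8 and 93.6 CPM in the ileum, 65.9, 67.3 and 73.0 CPM in the jejunum and 47.9, 50.4 and 64.6 CPM in the duodenum. Its segments also did not overlap, with a log2 fold change of 0.70 ± 0.22 from duodenum to ileum (FDR 0.154). *Nlrp6* had 312 and 355 CPM in the ileum, 304, 340 and 386 CPM in the jejunum and 383, 397 and 570 CPM in the duodenum. Its ileal libraries lay below the duodenal ones, by a log2 fold change of -0.42 ± 0.26 (FDR 0.495). *Nod2*, known from Paneth and myeloid cells, stayed between 0.935 and 2.13 CPM in all 8 WT libraries. Its ileal libraries (1.75 and 1.82 CPM) exceeded the jejunal ones (0.935 to 1.52 CPM) but fell among the duodenal ones.

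The endosomal receptors had contrasting levels. *Tlr3* had 32.3 and 41.7 CPM in the WT ileum, 27.4, 33.9 and 36.0 CPM in the jejunum and 17.5, 31.1 and 31.9 CPM in the duodenum, a log2 fold change of 0.47 ± 0.30 from duodenum to ileum (FDR 0.516). *Tlr9* reached at most 0.525 CPM (11 counts) in any of the 16 IEC libraries and fell below the count minimum. Without that filter it was not called in any IEC comparison. In all, 7 sensors had WT ileal and duodenal libraries that did not overlap, 6 higher and 1 lower in the ileum, where 37.0% of all tested genes were likewise apart. Between ileum and jejunum 6 were apart (22.1% of all genes), and between jejunum and duodenum 3 (19.8% of all genes), all of them higher in the more distal segment. The counts of the ileum include *Tlr4*, and those against the duodenum include *Tlr5*. Each passed the count minimum there only through the more distal segment, so that these counts are descriptions.

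**Figure D2:**
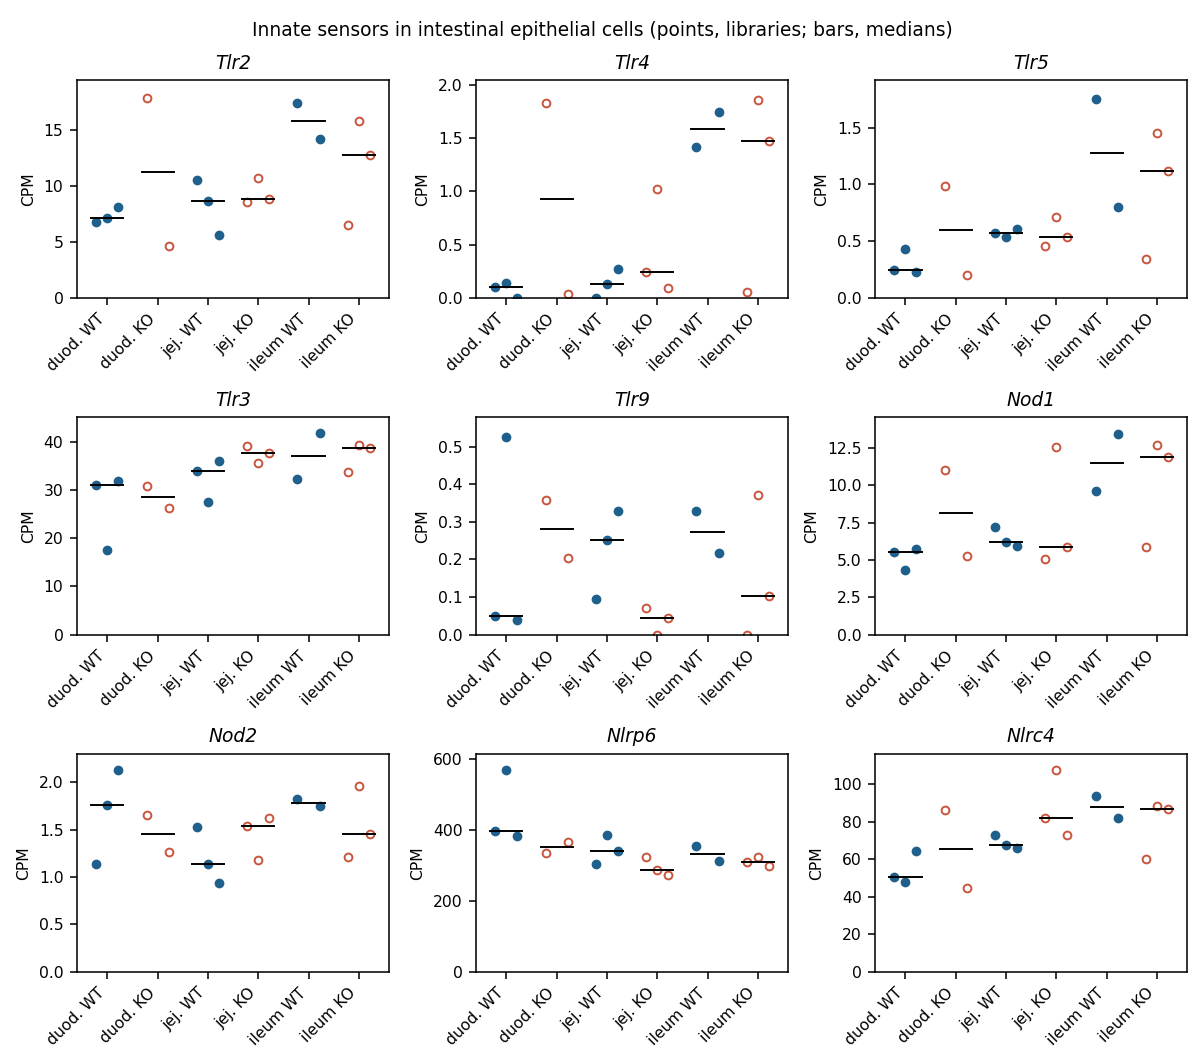
CPM of each sensor in every IEC library by segment and genotype (filled circles, WT; open circles, Btnl2-KO; bars, medians), each panel with its own axis from 0. The 2 WT ileal libraries exceed the duodenal ones for *Tlr2*, *Tlr4*, *Tlr5*, *Tlr3*, *Nod1* and *Nlrc4*, and among the open circles 1 duodenal library of doubtful label sits at ileal values of *Tlr4* (1.83 CPM) and 1 ileal library at duodenal values (0.0577 CPM).

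Around the sensors, 76 of 94 genes of 7 pathway lists were tested between WT ileum and duodenum, of which 14 were called higher and 1 lower. Of all 12784 genes tested, 355 were called higher and 210 lower. Of the genes known to respond to microbial signals, 8 of 13 were higher and none lower, with a median log2 fold change of 2.25 against -0.01 over all genes. They included *Saa1*, a serum amyloid A (9.68), *Nos2*, the inducible nitric oxide synthase (3.71), *Fut2*, a fucosyltransferase (3.06), *Duoxa2*, the maturation factor of the oxidase DUOX2 (2.84), and the antimicrobial lectin *Reg3g* (2.46). Of the other NLR and cytosolic sensors, 4 of 16 were higher, namely *Nlrp10* (4.22), the DNA sensor *Aim2* (2.33), *Nlrp9b* (1.60) and *Sting1* (1.26). None of 20 adaptors and kinases was called, with a median of 0.01. Of 9 inflammasome partners and products, 1 was called, the cytokine *Il18* (-1.59), of 7 co-receptors and chaperones 1, the lipopolysaccharide-binding protein *Lbp* (2.35), and of 9 negative regulators 1, *Nlrx1* (1.75). None of the 2 other Toll-like receptors tested was called.

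In the IEL the sensors fell into 2 kinds. *Nod1* had 35.1 to 82.0 CPM (527 to 1954 counts) in the 22 libraries. *Nlrp6* ran from 1.11 to 70.8 CPM (29 to 2263 counts), *Nlrc4* from 0.498 to 11.2 CPM and *Tlr3* from 0.191 to 3.39 CPM. The lowest value of all 3 fell in the Btnl2-KO jejunal library 1105592, which also had the least pan-epithelial signal (605 CPM). *Tlr2* stayed between 1.62 and 7.28 CPM (24 to 190 counts) and *Nod2* between 0.131 and 1.10 CPM (3 to 17 counts). *Tlr4* was at 0 in 19 of 22 libraries and at 1 count in the other 3, where 0 counts allow up to 0.0908 to 0.236 CPM, depending on the library. *Tlr5* and *Tlr9* were each at 0 in 16 of 22 libraries, and neither passed 6 counts. These 3 genes fell below the count minimum in IEL, and where a fit without that filter gave them a value, none was called.

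Across the 22 IEL libraries, 3 sensors followed the pan-epithelial genes and 3 did not. The 12 pan-epithelial genes, averaged as log2(CPM + 1), correlated with *Nlrp6* at Pearson r = 0.965 and Spearman rho = 0.883, with *Nlrc4* at 0.852 and 0.906, and with *Tlr3* at 0.771 and 0.845. Each had a permutation p of 1e-05, the smallest that 100000 permutations can give, and an adjusted p of 2e-05 over 6 genes. Without the 2 libraries farthest from the median, r was 0.905 for *Nlrp6*, 0.770 for *Nlrc4* and 0.807 for *Tlr3*. Within the duodenum, jejunum and ileum, r was 0.921, 0.986 and 0.985 for *Nlrp6*, 0.968, 0.95 and 0.941 for *Nlrc4*, and 0.734, 0.886 and 0.786 for *Tlr3* (n = 7, 8 and 7). For *Nod1* r was -0.352 and rho -0.408 (permutation p = 0.108 and 0.0613, adjusted 0.162 and 0.0919), and it differed by genotype, at -0.860 in the 12 WT and -0.184 in the 10 Btnl2-KO libraries, a difference that was not tested. For *Tlr2* r was -0.260 and for *Nod2* -0.149 (permutation p = 0.236 and 0.525, adjusted 0.284 and 0.525). Both measures come from the same library and share its depth, and libraries of different segments may share mice.

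**Figure D3:**
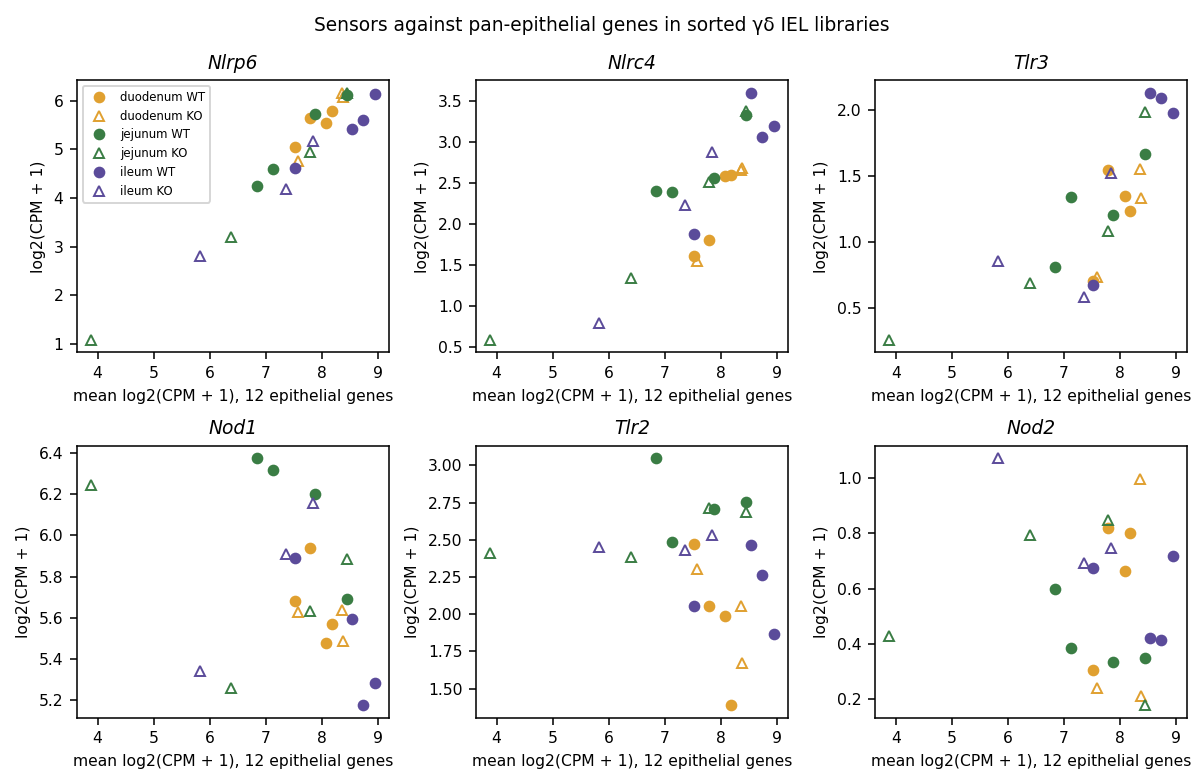
Level of 6 sensors (vertical axis, log2(CPM + 1)) against that of 12 pan-epithelial genes, averaged on the same scale (horizontal axis), in each of 22 IEL libraries, coloured by segment (filled circles, WT; open triangles, Btnl2-KO). *Nlrp6*, *Nlrc4* and *Tlr3* rise with the epithelial genes, at r = 0.965, 0.852 and 0.771, and *Nod1*, *Tlr2* and *Nod2* do not.

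Along the WT IEL, the jejunal libraries stood apart broadly, with 23.3% of 12629 tested genes called against the duodenum. Their 7 myeloid markers summed to 136.4 to 219 CPM, against 84.0 to 135.6 CPM in duodenum and 80.9 to 148 CPM in ileum. The part of myeloid cells in the differences of the sensors was not tested. *Tlr2* had 4.60, 5.53, 5.75 and 7.28 CPM in the jejunum, 1.62, 2.97, 3.16 and 4.56 CPM in the duodenum, and 2.65, 3.16, 3.80 and 4.52 CPM in the ileum. The jejunal libraries were the highest, by a margin over 1 duodenal library that was lost when only these groups were normalized together, and the log2 fold change over the duodenum was 0.90 ± 0.32 (FDR 0.0470), the only call among 6 sensors tested, and 2 of the 6 had an unadjusted p under 0.05, as did 46.6% of all genes. It was lost (0.82, FDR 0.0524) with the pan-epithelial mean as a covariate, where *Nlrc4* was called instead (0.86, FDR 0.0379), and in 7 of the 8 fits that left out a library, all but that without the duodenal library 1105582. *Nod1* had 50.8, 72.6, 78.7 and 82.0 CPM in the jejunum, 43.6, 46.5, 50.3 and 60.4 CPM in the duodenum and 35.1, 37.9, 47.3 and 58.3 CPM in the ileum. It was higher in jejunum than duodenum by 0.48 ± 0.17 on the log2 scale (FDR 0.0422), under the 1.5-fold minimum, which it passed without library 1105581 or 1105596. In ileum against jejunum *Nod1* was called lower, by -0.65 ± 0.20 (FDR 0.0283), 1 of 5 sensors tested where 21.7% of 12643 genes were called, and 2 of the 5 had an unadjusted p under 0.05, as did 45.7% of all genes. With the pan-epithelial mean as a covariate that value was -0.26 (FDR 0.165), and without any 1 of the 3 jejunal libraries 1105595, 1105597 and 1105598 or of the ileal libraries 1105588 and 1105589 it was not called. *Tlr2* fell short in this comparison (-0.70 ± 0.26, FDR 0.0579), although its groups were apart, as were those of 31.9% of all genes, and *Nlrp6* gave 0.20 ± 0.42 (FDR 0.744), but -0.69 (FDR 0.00684) with the pan-epithelial covariate. In ileum against duodenum 0 of 6 sensors were called by edgeR or DESeq2, against 2.16% of all genes, and 1 of the 6, *Nlrc4*, had an unadjusted p under 0.05, as did 10.3% of all genes.

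Of the 94 pathway genes, 72 were tested between WT jejunal and duodenal IEL, and 18 were called higher and 3 lower. Of all 12629 genes tested, 1330 were called higher and 1607 lower, 23.3% in either direction. The adaptors and kinases gave 8 higher and 1 lower of 20, with a median of 0.46 against 0.01 over all genes. The kinases *Tbk1* (0.93), *Chuk* (0.74) and *Map3k7* (0.72) and the ubiquitin ligase *Traf6* (0.84) were among those higher, and *Tab2*, a partner of *Map3k7*, was lower (-1.32). Of the other Toll-like receptors, *Tlr6*, which pairs with TLR2, was higher (1.02), 1 of 4 tested. Of 9 negative regulators 4 were higher, led by *Nlrc3* (1.16) and *Tollip* (1.02), and of 9 inflammasome partners and products 2 were lower, *Il18* (-2.23) and the adaptor *Pycard* (-1.13).

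In whole tissue, the sensors separated colon from small intestine most firmly for *Tlr4* and *Nlrc4*. *Tlr4* ran from 21.4 to 29.3 CPM, median 25.9, in the 6 WT colon libraries and from 4.46 to 12.3 CPM, median 9.81, in the 7 WT small intestine libraries. The groups did not overlap, and *Tlr4* was higher in colon by 1.54 ± 0.18 on the log2 scale (FDR 9.62e-06). *Nlrc4* ran from 34.2 to 40.5 CPM, median 36.7, in colon and from 53.8 to 99.0 CPM, median 79.1, in small intestine. It was lower in colon in every library, by -1.11 ± 0.13 (FDR 9.59e-06). *Tlr2* ran from 11.7 to 19.2 CPM, median 13.7, in colon and from 5.29 to 13.3 CPM, median 9.03, in small intestine. These groups overlapped, and the difference of 0.64 ± 0.21 (FDR 0.0234) was called in 10 of the 13 fits that left out a library, but not without colon library 964934 or small intestine libraries 964946 or 964950.

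Of the 9 sensors, 3 were called, 2 higher and 1 lower, where 27.6% of 15162 genes were called, and 8 had an unadjusted p under 0.05, as did 53.2% of all genes. Groups lay apart for 4 sensors, 2 higher and 2 lower in colon, as for 24.7% of all genes. A further 3 passed the FDR but not the fold minimum. *Nod1* was higher in colon by 0.52 ± 0.11 (FDR 0.00114), with 25.6 to 28.6 CPM, median 27.1, against 13.9 to 23.7 CPM, median 18.5, and no overlap. *Tlr3* was lower by -0.54 ± 0.10 (FDR 0.00051), with 31.0 to 39.0 CPM, median 34.6, against 39.6 to 59.1 CPM, median 48.5, also with no overlap. *Nlrp6* was lower by -0.55 ± 0.15 (FDR 0.00682), with 144 to 230 CPM, median 182, against 214 to 382 CPM, median 243. *Tlr5* had 4.86 to 6.43 CPM, median 5.28, in colon against 1.29 to 6.48 CPM, median 3.0, in small intestine (0.66 ± 0.28, FDR 0.0722). *Tlr9* had 0.585 to 4.27 CPM, median 2.38, against 1.15 to 7.45 CPM, median 4.999 (-1.01 ± 0.43, FDR 0.0689), and *Nod2* had 1.56 to 6.96 CPM, median 2.48, against 1.97 to 4.72 CPM, median 3.09. Neither *Tlr5*, *Tlr9* nor *Nod2* was called, and their libraries overlapped. The summed pan-epithelial markers ran from 11456 to 13207 CPM in WT colon and 10273 to 19751 CPM in WT small intestine, the 7 myeloid markers from 94.5 to 256 CPM and 193 to 495 CPM, and the 7 stromal and muscle markers from 4797 to 6409 CPM and 4215 to 8132 CPM. With the pan-epithelial mean as a covariate, chosen after the data were seen, *Tlr4* (1.66) and *Nlrc4* (-0.80) were still called, *Tlr2* was not (0.55, FDR 0.104), and *Nlrp6* (-0.70) and *Tlr9* (-1.60) were called as well. The part of the myeloid and stromal cells in these differences was not tested.

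**Figure D4:**
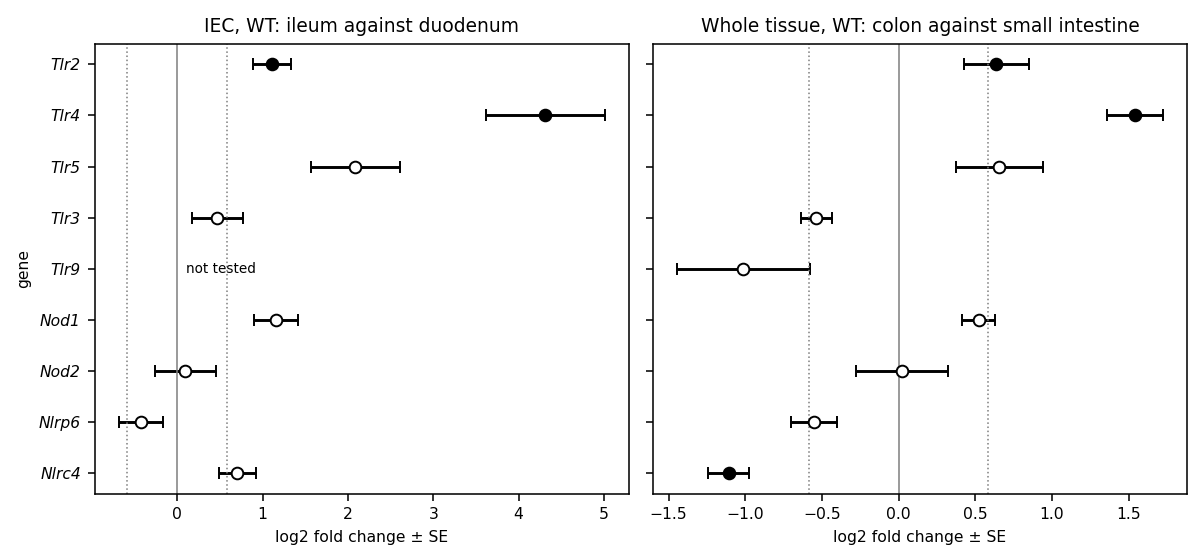
Log2 fold change ± SE of each sensor from edgeR between regions of WT mice, in IEC (left) and whole tissue (right). Filled points were called (FDR below 0.05 and at least 1.5-fold, dotted lines). *Tlr2* and *Tlr4* are filled on the right-hand side of 0 in both panels, at 1.11 and 4.31 in IEC and 0.64 and 1.54 in tissue. In IEC *Tlr4* passed the count minimum only through the ileal libraries, so that its filled point there is a description.

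Of the rest of the pathway, 14 genes were higher and 31 lower in colon among 88 tested, where 1814 of all 15162 genes were higher and 2371 lower. Of the 7 other Toll-like receptors 4 were lower, *Tlr12* (-2.24), *Tlr8* (-1.26), *Tlr13* (-1.23) and *Tlr11* (-1.21), and 1 was higher, *Tlr1* (2.06), a partner of TLR2. Of the 9 co-receptors and chaperones, *Cd14*, which hands lipopolysaccharide to TLR4, was higher (1.46), and *Ly86* (-1.11), *Lbp* (-0.86) and *Hsp90b1* (-0.62) were lower. Of the inflammasome list 5 of 10 were lower and 1 higher. The flagellin sensors *Naip5* (-0.99) and *Naip6* (-0.74), which act upstream of NLRC4, and the protease *Casp4* (-0.87) were lower, and *Il18* was higher (3.13). Of the genes that respond to microbial signals 5 were higher, among them *Saa2* (3.97) and *Saa1* (3.84), and 7 lower, among them *Reg3b* (-12.05), *Reg3g* (-11.80) and *Nos2* (-6.65). Of 17 other NLR and cytosolic sensors 2 were higher, led by *Nlrp10* (3.59), and 8 lower, led by *Nlrc5* (-2.60), *Ciita* (-2.45) and *Zbp1* (-2.07). Adaptors and kinases gave 2 of 21 in each direction, and negative regulators 2 of 9 in each direction, with *Socs1* at -2.15 and *Nlrx1* at 0.93.

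Loss of *Btnl2* was followed by no called sensor in any of the 8 comparisons of genotype, by edgeR or DESeq2. *Btnl2* itself was not called by edgeR in duodenal IEC (-4.13 ± 0.98), jejunal IEC (-2.74 ± 1.11, FDR 0.568) or ileal IEL (-5.92 ± 0.87, FDR 0.263). The lack of a call in those groups therefore does not show that a sensor was unchanged. The closest sensors were *Tlr3* and *Nlrc4* in the small intestine, both higher in Btnl2-KO. *Tlr3* ran from 59.5 to 80.7 CPM, median 64.2, in the 7 Btnl2-KO libraries and from 39.6 to 59.1 CPM, median 48.5, in the 7 WT libraries. The groups did not overlap, as was so for 0.948% of 14866 genes, and the log2 fold change was 0.45 ± 0.10 (FDR 0.113). *Nlrc4* ran from 97.0 to 116 CPM, median 110, in Btnl2-KO and from 53.8 to 99.0 CPM, median 79.1, in WT (0.45 ± 0.13, FDR 0.114). In all, 3 of the 9 had an unadjusted p under 0.05, *Tlr9* being the other, where 23.0% of all genes did and 0.0202% were called. *Tlr9* ran from 1.57 to 3.90 CPM, median 3.04, in Btnl2-KO and from 1.15 to 7.45 CPM, median 4.999, in WT (-0.71 ± 0.33, FDR 0.214). *Nod1* gave -0.23 ± 0.14 (FDR 0.319) and *Nod2* -0.35 ± 0.21 (FDR 0.326), and the other 4 lay between -0.27 and 0.20.

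Cell markers of the small intestine were read beside these values, and each of the following ranges overlapped between the genotypes. The pan-epithelial sum ran from 15241 to 20297 CPM in Btnl2-KO and from 10273 to 19751 CPM in WT, the 7 myeloid markers from 199 to 309 CPM and from 193 to 495 CPM, and the 5 B cell markers from 7.54 to 19.98 CPM and from 8.65 to 103 CPM. The sum of the ileal enterocyte markers *Fabp6* and *Slc10a2* ran from 437 to 4382 CPM, median 3420, in Btnl2-KO and from 111 to 2863 CPM, median 1954, in WT, and neither marker was called. Its part in the differences of *Tlr3* and *Nlrc4* was not tested. Over the 14 libraries *Nlrc4* correlated with the pan-epithelial mean at r = 0.925 and rho = 0.864 (permutation p = 6e-05 and 0.00019, adjusted 0.00162 and 0.00513 over 54 relations). The r was 0.760 within Btnl2-KO and 0.943 within WT (n = 7 each), and 0.836 without the 2 farthest libraries. *Tlr3* gave r = 0.610 (adjusted permutation p = 0.0884) and -0.121 within Btnl2-KO. With the pan-epithelial mean as a covariate, chosen after the data were seen, the genotype difference was 0.22 for *Nlrc4* and 0.37 for *Tlr3*, each with an FDR of 0.377. *Tlr9* correlated with the myeloid markers at r = 0.905 and rho = 0.912 (permutation p = 1e-05 and 3e-05, adjusted 0.00054 and 0.00162), with r = 0.786 within Btnl2-KO, 0.919 within WT and 0.882 without the 2 farthest libraries. *Nod1* (r = 0.810), *Nod2* (0.802) and *Tlr2* (0.746) also followed the myeloid markers there, with adjusted permutation p of 0.0103, 0.0103 and 0.0170 and within-genotype r of 0.753 to 0.839. *Tlr9* followed the B cell markers too (r = 0.661, rho = 0.754, adjusted permutation p = 0.0170 and 0.0257). *Nod1* and *Tlr2* did so by rho (0.758 and 0.723, adjusted permutation p = 0.0257 and 0.0309). With the pan-epithelial mean *Tlr9* gave r = -0.716 (adjusted permutation p = 0.0244), at -0.746 within WT but -0.048 within Btnl2-KO. *Nlrp6*, which followed the pan-epithelial genes in IEL, gave r = -0.227 with them here (adjusted permutation p = 0.646). In colon the relation of *Tlr9* to the myeloid markers (r = 0.799, rho = 0.544, adjusted permutation p = 0.0170 and 0.224, n = 13) fell to r = 0.283 without the 2 farthest libraries, and so rested on them. For *Nod1*, *Nod2* and *Tlr2* r with the myeloid markers in colon was 0.491, -0.043 and 0.355 (adjusted permutation p = 0.241, 0.934 and 0.41). The part of these cells in the genotype differences was not tested.

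**Figure D5:**
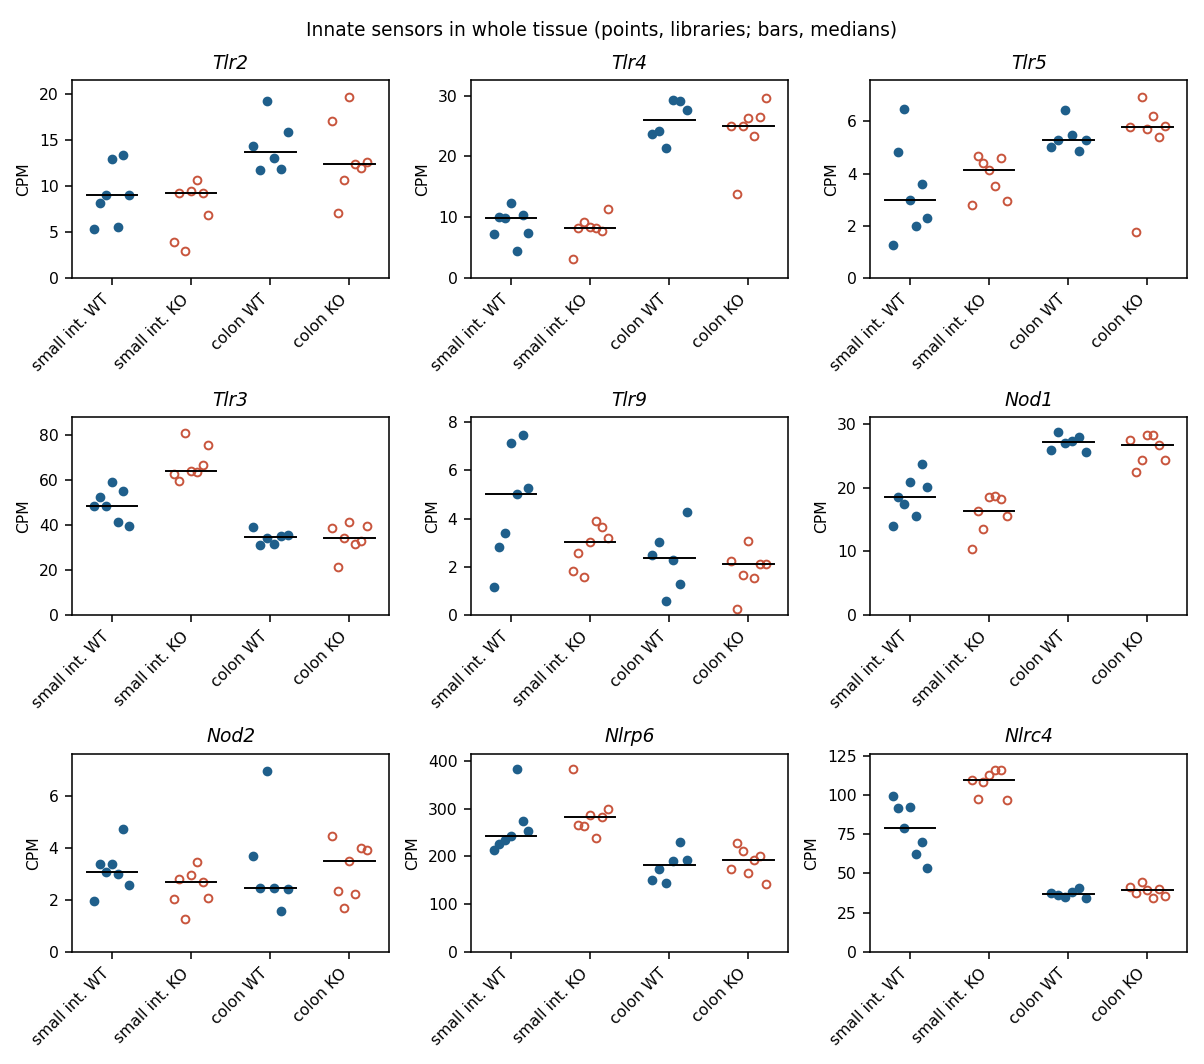
CPM of each sensor in every whole-tissue library (filled circles, WT; open circles, Btnl2-KO; bars, medians), each panel with its own axis from 0. *Tlr4* stands at 21.4 to 29.3 CPM in WT colon against 4.46 to 12.3 CPM in WT small intestine, *Nlrc4* the other way round, and for *Tlr3* every Btnl2-KO small intestine library exceeds every WT one.

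In colon the 9 sensors differed between the genotypes by -0.31 (*Tlr9*) to 0.07 (*Nlrc4*) on the log2 scale, with a lowest FDR of 0.972, and 0 had an unadjusted p under 0.05, where 4.14% of genes did and 0.0269% were called. The genotype differences of *Tlr3* and *Nlrc4* in colon were smaller than in small intestine by -0.45 and -0.37, but not beyond the test of that difference (edgeR, FDR 0.315 and 0.323). The Btnl2-KO colon library 964926 had the lowest *Tlr2*, *Tlr3*, *Tlr4*, *Tlr5*, *Tlr9* and *Nod1* of its group and the least myeloid signal of all tissue libraries (71.6 CPM).

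In IEC, 0 of 6 sensors tested in the duodenum, 0 of 7 in the jejunum and 0 of 8 in the ileum were called, where 0.0%, 0.0% and 0.00774% of genes were called. None had an unadjusted p under 0.05, where 1.22%, 8.4% and 2.07% of all genes did. *Nlrp6* had 336 and 366 CPM in duodenal Btnl2-KO against 383, 397 and 570 CPM in WT (-0.34 ± 0.29, edgeR FDR 1), and *Nlrc4* 73.0, 82.1 and 107 CPM in jejunal Btnl2-KO against 65.9, 67.3 and 73.0 CPM in WT (0.34 ± 0.17, FDR 0.568). These groups did not overlap when normalized together, as was so for 11.0% and 17.3% of genes, although 1 jejunal library of each genotype stood at 73.0 CPM of *Nlrc4*. Without library 1003474 the difference of *Nlrc4* was 0.18. Without library 1003459 that of duodenal *Nlrp6* was -0.29, from 1 Btnl2-KO library assumed to vary like the WT ones. Without any 1 of 1003459, 1003474 and 1003481 no sensor was called. In the ileum the 2 Btnl2-KO libraries other than 1003481 had 1.48 and 1.86 CPM of *Tlr4*, 12.7 and 15.8 CPM of *Tlr2* and 11.9 and 12.7 CPM of *Nod1*, near the WT values.

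In IEL, edgeR called 0 of 6, 0 of 5 and 0 of 6 sensors in duodenum, jejunum and ileum. It called 0.00789%, 0.00794% and 0.0% of all genes there. In ileum DESeq2 called 221 of 12604 genes at the same thresholds, 219 lower and 2 higher in Btnl2-KO, but 0 of 6 sensors. The paper, which used DESeq2, likewise reports many genes lowered in ileal Btnl2-KO IEL. Of the sensors tested by edgeR only ileal *Nlrp6* had an unadjusted p under 0.05, where 2.07%, 6.39% and 8.79% of all genes did. It had 6.02, 17.1 and 34.8 CPM in Btnl2-KO and 23.4, 41.8, 47.7 and 69.5 CPM in WT (-1.22 ± 0.51, FDR 0.542). *Nlrc4* had 0.735, 3.70 and 6.40 CPM against 2.68, 7.40, 8.17 and 11.2 CPM (-1.005 ± 0.65, FDR 0.648), and *Tlr3* 0.494, 0.808 and 1.87 CPM against 0.596, 2.94, 3.27 and 3.39 CPM (-1.23 ± 0.69, FDR 0.616). Leaving out 1 library moved these values to between -1.95 and -0.83 for *Nlrp6*, -1.69 and -0.56 for *Nlrc4*, and -1.92 and -0.89 for *Tlr3*, the lowest of each without Btnl2-KO library 1105586. The pan-epithelial sum was 1025, 2893 and 3669 CPM in the same Btnl2-KO libraries and 3464, 6942, 8255 and 9223 CPM in the WT ones. With its mean as a covariate the differences were 0.14 for *Nlrp6*, 0.66 for *Nlrc4* and -0.00 for *Tlr3*, none called. Of the 94 pathway genes none was called in any comparison of genotype, out of 68 to 87 tested by edgeR. An unadjusted p under 0.05 was reached by 25 of 87 in small intestine (23.0% of all genes) and 2 of 86 in colon (4.14%). In duodenal, jejunal and ileal IEC 2 of 74, 4 of 74 and 3 of 76 reached it (1.22%, 8.4% and 2.07% of all genes). In the same segments of IEL 3 of 68, 10 of 72 and 9 of 75 reached it (2.07%, 6.39% and 8.79% of all genes).

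Over the mean log2(CPM + 1) of the 16 groups, the genes most like each sensor were as follows, as a description across groups of 3 separately normalized tables. *Tlr2* was most like *Dnajc10* (r = 0.957), *Tlr4* like *Gm53* (0.996), *Cacna1b* (0.994) and *Ak4* (0.994), and *Tlr5* like *Kcnma1* (0.993). *Tlr3* was most like *Twf1* (0.997) and *Tlr9* like *Kcnj12* (0.994). *Nod1* was most like *Fgd3* (0.995) and *Nod2* like *Extl3* (0.990). *Nlrp6* was most like *Dcbld1* (0.995), and *Nlrc4* like *Carmil1* (0.994), with *Btnl4*, a butyrophilin-like gene of the epithelium, at 0.992. Among the sensors themselves *Tlr3* and *Nlrc4* were alike at r = 0.985, and *Tlr4* and *Tlr5* at 0.980, whereas *Nod1* ran opposite to *Nlrp6* at -0.907.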

How the data were processed

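RNA of 65 bulk libraries was sequenced. The labels name a strand-specific mRNA kit (KAPA) and the study's methods a low-input kit (SMARTer Ultra Low) with Nextera XT, so that the kit is uncertain, and with it whether strand was kept. Here the authors deposited expected counts, that is, estimated reads per gene from RSEM in ArrayStudio, by gene identifier and not normalized, with GRCm38 named in the submitters' processing notes. Versions are not given in the sources used here. Rounding made these whole numbers before any fit. Of 24475 identifiers 100 had no symbol, and 1 column that matched no sample was not used. Groups came from the sample labels. Each comparison was fitted within its own table with edgeR 4.0.16 (TMM, quasi-likelihood test, R 4.3.3) on genes passing a count minimum of 10, with Benjamini-Hochberg adjustment over all genes tested. Called means an FDR under 0.05 and a change of at least 1.5-fold. The fit held the groups compared only. CPM in the text are TMM-normalized over all libraries of a table, and genes whose groups did not overlap were counted after TMM within the groups compared. Correlations used log2(CPM + 1) and 100000 permutations, in families of 6 and 54 relations (scipy 1.17.1). DESeq2 1.42.0, other scalings, no filter, all libraries in one fit, a pan-epithelial covariate and leaving out each library were the alternatives. Scripts were tested on simulated data. All 9 sensors were named, with list genes by counts and up to 6 called genes per list, and the 3 genes most like each sensor. Members and lists were chosen with earlier results of these data known. Nothing ties the libraries of a group to separate experiments, so that p-values measure the spread between these samples. Intervals and floors cover counting error only. The single-cell files were not used here.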

Additional observations from a re-analysis of the deposited data

Results flagged for a closer look

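Of 60 combinations of a sensor and a group of 4 to 10 libraries, 7 (11.7%) held a library set apart from the rest beyond Dixon's 95% critical value, which chance gives for about 1 combination in 20. The Btnl2-KO colon library 964926 accounted for 4 of them. It had 21.4 CPM of *Tlr3* (others 31.5 to 41.2), 13.9 CPM of *Tlr4* (others 23.4 to 29.6), 1.76 CPM of *Tlr5* (others 5.39 to 6.93) and 0.252 CPM of *Tlr9* (others 1.55 to 3.09). The Btnl2-KO small intestine library 964939 had 3.12 CPM of *Tlr4* (others 7.78 to 11.3). The WT small intestine library 964950 had 382 CPM of *Nlrp6* (others 214 to 274). The WT ileal IEL library 1105587 had 0.596 CPM of *Tlr3* (others 2.94 to 3.39).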

How the results depend on the processing

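Of 498 values of 34 sensor differences under the alternatives, all but 5 kept their direction. Between WT ileal and duodenal IEC, where 2 sensors were called, DESeq2 called 4, no filter on low counts 1, all libraries in one fit 0 and all but the 3 of doubtful label 5, and leaving out 1 library gave 0 to 4. Between ileal and jejunal IEC (0), DESeq2 and the fit without the 3 doubtful libraries called 1, and leaving out 1 library gave 0 to 1. Between jejunal and duodenal IEL (1), no fold minimum gave 2, no filter 0 and leaving out 1 library 0 to 1. Between ileal and jejunal IEL (1), DESeq2 called 2, and leaving out 1 library gave 0 to 2. Between colon and small intestine (3), no fold minimum gave 6, DESeq2 5, all libraries in one fit 5, and leaving out 1 library 2 to 5. With the pan-epithelial covariate *Nlrp6* turned to -0.69 between ileal and jejunal IEL (-0.10 to 0.57 on leaving out 1 library), and in ileal Btnl2-KO IEL *Nlrp6* turned to 0.14 and *Nlrc4* to 0.66. The cause was not tested. Over all genes and with the fits that leave out 1 library included, calls ranged from 0 to 1483 (565) between ileal and duodenal IEC, 0 to 329 (40) between jejunal and duodenal, 0 to 342 (145) between ileal and jejunal, 125 to 564 (271) between ileal and duodenal IEL, 1 to 219 (3) by genotype in small intestine and 0 to 221 (0) in ileal IEL. The 221 calls in ileal IEL were those of DESeq2, 219 of them lower in Btnl2-KO. No paired analysis was possible because the groups share no replicate numbers. In IEL *Tlr4*, *Tlr5* and *Tlr9* were tested only without the filter on low counts, at 6 counts or fewer per library.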
